A study of Homo sapiens with 9 samples.

Results

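Nodal is a secreted ligand of the TGF-beta family, and this report describes the genes that carry and restrain its signal in HSF-6, a line of human embryonic stem cells. The genes were NODAL, its relatives and antagonists LEFTY1, LEFTY2, GDF3 and CER1, the co-receptors TDGF1, CFC1 and CFC1B, and the intracellular components FOXH1 and SMAD7. They were chosen from earlier values of these same arrays: the levels of LEFTY1 and NODAL in treated and untreated HSF-6(8) cells, both including and leaving out the third treated array, were known when the set was named. All probe sets annotated to any of the 10 genes were taken, which gave 15 of the 54675 on the array, for 10 of the 21359 genes that the array's annotation names. Of these, 12 were annotated to 1 gene and 3 to several genes. LEFTY2 was represented only by a probe set that it shares with LEFTY1. TDGF1, whose current symbol is CRIPTO, had 1 probe set, which it shares with CRIPTO3. In the RefSeq annotation of GRCh38.p14, LEFTY1 (chr1:225886282-225889146) and LEFTY2 (chr1:225936603-225941220) lie near each other, as do CFC1 (chr2:130592165-130599575) and CFC1B (chr2:130521222-130528603).

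Total RNA was hybridised to 9 Affymetrix U133 Plus arrays, 3 in each of 3 groups. The groups were HSF-6(S9) cells kept with butyrate and DZNep, HSF-6(8) cells kept with butyrate and DZNep, and HSF-6(8) cells kept without either compound. Per the labels, collection followed 11 passages and cells were grown for 6 days. Butyrate inhibits histone deacetylases, and DZNep (3-deazaneplanocin A) inhibits S-adenosylhomocysteine hydrolase and thereby methylation reactions such as that of the Polycomb enzyme EZH2. The labels give no doses and do not say what (8) and (S9) stand for. No untreated HSF-6(S9) array was analysed here, so subline and compounds cannot be told apart in a comparison of treated HSF-6(S9) with untreated HSF-6(8). It is not stated in the labels if the arrays within a group represent separate cultures, so the p-values reflect only the spread among these samples, which could be technical.

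Nodal binds activin receptors together with an EGF-CFC co-receptor, and the receptors phosphorylate SMAD2 and SMAD3, which enter the nucleus with SMAD4 and act with DNA-binding partners such as FOXH1. The pathway switches on its own ligand and its own inhibitors, the LEFTY proteins, so that the range of the signal is limited. In human embryonic stem cells, signalling through SMAD2 and SMAD3 maintains the undifferentiated state, and stronger signalling is known for driving mesendoderm formation.

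Markers of human embryonic stem cells were bright in every group. The summed signal of the 11 markers with a probe set of their own lay between 140440 and 230439 on the treated HSF-6(S9) arrays, between 150253 and 162287 on the treated HSF-6(8) arrays, and between 157421 and 205891 on the untreated arrays. POU5F1 was not among them because its probe set is shared with other genes. The third treated HSF-6(8) array stood apart in markers of other cell types, and values that rest on it are also given with that array left out. Its summed endoderm markers reached 21628, against 10002 and 10654 on the other arrays of its group. The same sum was 9734 to 10448 on treated HSF-6(S9) arrays and 6399 to 7175 on untreated arrays, and 12 of 15 endoderm markers were highest of all 9 arrays on the third treated HSF-6(8) array. For comparison, 17.0% of all kept probe sets were highest on that array. Mesoderm and primitive streak markers summed to 9100 on that array, against 2719 and 2492 on the others of its group, 2075 to 3285 on treated HSF-6(S9) arrays and 1897 to 2240 on untreated arrays. Of those 13 markers, 6 were highest there, including GSC, which was not kept. Fibroblast and stromal markers summed to 67037 on it, against 34202 and 35945 on the others of its group, 34533 to 46619 on treated HSF-6(S9) arrays and 30758 to 40938 on untreated arrays, and 7 of 12 were highest there. LUM was among those 7 and was not kept. Of 10 trophoblast markers, 4 were highest on the third treated HSF-6(8) array. They included ELF5 and PSG1, at 33.6 and 47.1 there, which were below the median of every array. Trophoblast markers did not stand out there in their sum, at 1872, against 2617 and 2031 on the others of its group. They summed to 1768 to 2762 on treated HSF-6(S9) arrays and 794 to 1152 on untreated arrays, below all treated arrays. GATA3 and TFAP2A gave most of that sum, at 661 and 1343 on the first treated HSF-6(8) array. Of the 10 markers, 4 stayed below the median of every array. Of the 6 tested, GATA3 alone was called. It was higher in both comparisons with untreated cells, by 2.19 in treated HSF-6(S9) and 2.17 in treated HSF-6(8) on the log2 scale (limma, adjusted p = 0.00441 and 0.00413). Neuroectoderm markers summed to 8045 on the third treated HSF-6(8) array, against 6733 and 6276 on the others of its group, 6493 to 8587 on treated HSF-6(S9) arrays and 5212 to 5984 on untreated arrays. NES gave most of that sum, at 7308 on the third treated HSF-6(8) array. Of the 9 markers with a probe set of their own, 3 were highest on that array, including LHX2 and ZIC1, which were not kept. The median log2 difference of the 9 between that array and the mean of the others of its group was −0.28. Of the 4 neuroectoderm markers tested, PAX3 was called higher in treated HSF-6(S9) against untreated cells, by 3.34 (limma, adjusted p = 0.0377, and 0.0502 when the third treated HSF-6(8) array was left out). In treated against untreated HSF-6(8) cells its difference was 2.85 (limma, adjusted p = 0.0877), and 2.94 without the third treated array. PAX3 exceeded the array median only on the 6 treated arrays, so it entered the test only through the groups where it was high. The part of these cell types in the results below was not tested.

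The promoters of NODAL, GDF3 and CER1 are shown because these are the secreted members with a promoter entry, and all of them were highest on the third treated HSF-6(8) array. Each line gives the 250 bases before the start site in the RefSeq promoter table (GRCh38.p14), read on the minus strand, 5′ to 3′. Capitals mark matches to a FOXH1 motif, AATNNACA (reverse complement TGTNNATT), and to a SMAD motif, CAGAC (reverse complement GTCTG). Both strands were searched. A promoter entry was found for 7 of the 10 genes.
NODAL, chr10:70441682-70441931: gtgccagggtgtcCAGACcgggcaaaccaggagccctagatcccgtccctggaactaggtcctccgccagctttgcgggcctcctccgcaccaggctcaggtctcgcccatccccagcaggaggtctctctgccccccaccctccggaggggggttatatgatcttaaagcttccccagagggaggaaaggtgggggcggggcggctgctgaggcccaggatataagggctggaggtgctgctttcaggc
GDF3, chr12:7695776-7696025: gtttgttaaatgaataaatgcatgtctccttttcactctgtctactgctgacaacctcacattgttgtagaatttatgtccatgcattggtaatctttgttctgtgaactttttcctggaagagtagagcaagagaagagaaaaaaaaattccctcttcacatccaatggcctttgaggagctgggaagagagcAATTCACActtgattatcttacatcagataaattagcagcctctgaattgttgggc
CER1, chr9:14722734-14722983: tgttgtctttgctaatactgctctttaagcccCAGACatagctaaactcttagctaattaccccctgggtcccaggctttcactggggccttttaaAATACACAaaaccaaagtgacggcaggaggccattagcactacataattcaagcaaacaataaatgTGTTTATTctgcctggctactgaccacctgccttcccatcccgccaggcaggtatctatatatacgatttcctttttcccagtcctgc
The CER1 window held 2 FOXH1 matches and 1 SMAD match, the GDF3 window 1 FOXH1 match and no SMAD match, and the NODAL window 1 SMAD match and no FOXH1 match. The NODAL window lies inside the annotated gene span, which runs from 70431936 to 70447951 on chromosome 10. Among 27305 promoter windows of the same length, 9.9% held the FOXH1 motif and 37.8% the SMAD motif. A match is a run of letters and is not evidence of binding.

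Signals are given in MAS5 units on a linear scale, and levels of different probe sets are not set against each other. Differences are on the log2(signal + 16) scale, which understates changes of dim probe sets, and are followed by the standard error from a limma fit over all 9 arrays. Testing was limited to the 29328 probe sets whose signal exceeded the array median on 3 or more of the 9 arrays. Of the 15 Nodal pathway probe sets, 12 were kept. A call required a Benjamini-Hochberg adjusted p under 0.05 over all kept probe sets and at least a 2-fold change. In bulk RNA, fewer cells of a type and less RNA per cell cannot be told apart. The difference between treated and untreated HSF-6(8) cells is a description, because it chose the genes: no p-value is given for a member there, and counts of probe sets past a threshold are printed only as counts. The other comparisons each share a group of arrays with it. Their p-values and calls for members are therefore not independent of that choice, and are also a description.

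NODAL, the ligand itself, was measured by 2 kept probe sets. The brighter had signals of 777, 875 and 823 on treated HSF-6(S9) arrays, 763, 746 and 3661 on treated HSF-6(8) arrays, and 2177, 2053 and 1946 on untreated HSF-6(8) arrays. All treated arrays except the third of HSF-6(8) lay below all untreated arrays, and the third array lay above every other. Treated HSF-6(S9) minus untreated cells was −1.30 ± 0.52 (limma, adjusted p = 0.384). When the third treated HSF-6(8) array, which enters the shared estimate of the spread, was left out, it was −1.30 ± 0.15 with an adjusted p of 0.0172. Fitted on treated HSF-6(S9) and untreated arrays alone, the limma adjusted p was 0.0579. Treated minus untreated HSF-6(8) was −0.68 ± 0.52 with all arrays and −1.43 ± 0.17 without the third treated array.

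The dimmer NODAL probe set had signals of 159, 66.8 and 141 on treated HSF-6(S9) arrays, 155, 104 and 766 on treated HSF-6(8) arrays, and 442, 369 and 357 on untreated arrays. It separated the arrays in the same way as the brighter probe set, with 5 treated arrays below all untreated ones, and the third treated HSF-6(8) array above all others. Treated HSF-6(S9) minus untreated was −1.62 ± 0.61 (limma, adjusted p = 0.355), and ± 0.30 with an adjusted p of 0.0734 when that array was left out. Treated minus untreated HSF-6(8) was −0.68 with all arrays and −1.49 ± 0.34 without the third treated array. A remaining NODAL probe set stayed between 2.86 and 65.4 on the 9 arrays and was not tested.

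LEFTY1 encodes a secreted inhibitor that blocks Nodal at its receptor complex and is itself switched on by the pathway. Its own probe set had signals of 1401, 861 and 1428 on treated HSF-6(S9) arrays, 1382, 833 and 8231 on treated HSF-6(8) arrays, and 11324, 9819 and 8256 on untreated arrays. The untreated arrays were all higher than every treated array, although the third treated HSF-6(8) array, at 8231, came close to the lowest of them. The mean untreated signal was 7.97 times that of treated HSF-6(S9) cells. For treated HSF-6(S9) over untreated cells, the difference was −3.00 ± 0.70 (limma, adjusted p = 0.133). Leaving out the third treated HSF-6(8) array gave −3.00 ± 0.28 with an adjusted p of 0.00633, and the limma fit on treated HSF-6(S9) and untreated arrays alone gave an adjusted p of 0.0106.

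Within HSF-6(8), LEFTY1 differed by −2.19 ± 0.70 between treated and untreated cells with all arrays, and by −3.16 ± 0.31 without the third treated array. The mean untreated signal was 8.85 times the mean of the first and second treated arrays, and the third treated array was 7.43 times that mean. Between the treated sublines, HSF-6(S9) minus HSF-6(8), it was −0.82 ± 0.70 with all arrays (limma, adjusted p = 1.00). Without the third treated array it was 0.16, with a 95% interval of −0.56 to 0.88.

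The probe set shared by LEFTY1 and LEFTY2 had its highest value on the third treated HSF-6(8) array. Its signals were 1702, 981 and 2204 on treated HSF-6(S9) arrays, 2134, 1613 and 15051 on treated HSF-6(8) arrays, and 4271, 3151 and 2414 on untreated arrays. The third treated HSF-6(8) array was 8.03 times the mean of the others of its group and 4.59 times the untreated mean, whereas for the LEFTY1 probe set it was 0.840 times the untreated mean. Which of the 2 genes gave the shared signal cannot be read from the array. Relative to untreated cells, treated HSF-6(S9) differed by −1.04 ± 0.73 (limma, adjusted p = 0.666). Within HSF-6(8), treated minus untreated was 0.23 with all arrays and −0.78 ± 0.38 without the third treated array.

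CER1, a secreted antagonist of Nodal and BMP ligands, showed the largest gap of the 12 kept probe sets between the third treated HSF-6(8) array and the others of its group. CER1 had signals of 199, 194 and 241 on treated HSF-6(S9) arrays, 188, 234 and 4489 on treated HSF-6(8) arrays, and 355, 307 and 558 on untreated arrays. The third treated array was 21.3 times the mean of the first and second and 11.0 times the untreated mean, while the 5 other treated arrays lay below all untreated arrays. The difference between treated HSF-6(S9) and untreated cells was −0.86 ± 0.98 (limma, adjusted p = 0.817), and −0.86 ± 0.24 without that array, with an adjusted p of 0.192. Treated minus untreated HSF-6(8) was 0.58 ± 0.98 with all arrays and −0.86 ± 0.27 without the third treated array, so the direction turned with that array.

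GDF3, a ligand related to Nodal that also uses EGF-CFC co-receptors, separated the arrays in the same way. Its probe set had signals of 488, 391 and 531 on treated HSF-6(S9) arrays, 521, 457 and 3523 on treated HSF-6(8) arrays, and 898, 870 and 708 on untreated arrays. The third treated HSF-6(8) array was 7.20 times the mean of the others of its group, and the 5 other treated arrays lay below all untreated arrays. Against untreated cells, treated HSF-6(S9) differed by −0.79 ± 0.65 (limma, adjusted p = 0.720). Treated minus untreated HSF-6(8) was 0.21 ± 0.65 with all arrays and −0.73 ± 0.21 without the third treated array.

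**Figure D1:**
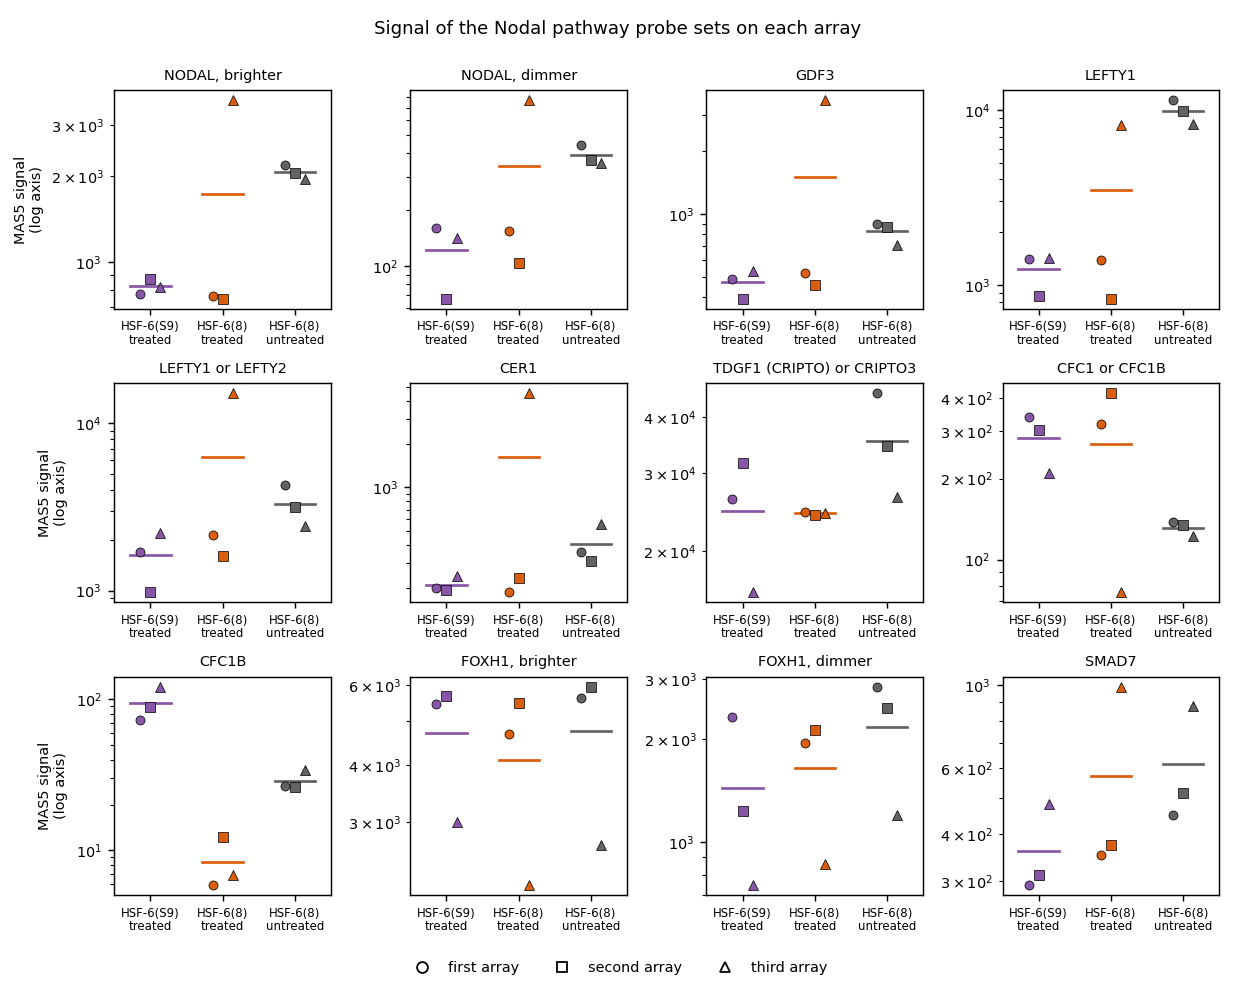
MAS5 signal (log axis) of each kept Nodal pathway probe set on the 9 arrays, with treated HSF-6(S9), treated HSF-6(8) and untreated HSF-6(8) from left to right. Points are arrays and horizontal bars are group means; the third treated HSF-6(8) array is above all other arrays for 6 of the 12 probe sets, and CER1 reaches 4489 there.

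TDGF1 encodes Cripto, the EGF-CFC protein through which Nodal engages its receptors. Its signals were 26239, 31569 and 16158 on treated HSF-6(S9) arrays, 24487, 24089 and 24320 on treated HSF-6(8) arrays, and 45294, 34477 and 26416 on untreated arrays. All treated HSF-6(8) arrays lay below all untreated arrays, and the third was 1.00 times the mean of the others. For treated HSF-6(S9) over untreated cells, the difference was −0.54 ± 0.28 (limma, adjusted p = 0.529), with overlapping groups. Within HSF-6(8), treated minus untreated was −0.51 ± 0.28.

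CFC1 and CFC1B encode near-identical copies of Cryptic, the other human EGF-CFC protein, and signal on a probe set for one copy may come from the other. The probe set shared by both had signals of 339, 304 and 209 on treated HSF-6(S9) arrays, 319, 415 and 75.7 on treated HSF-6(8) arrays, and 138, 134 and 123 on untreated arrays. The 5 treated arrays other than the third of HSF-6(8) lay above all untreated arrays, and the third array was the lowest of the 9. Relative to untreated cells, treated HSF-6(S9) differed by 1.00 ± 0.50 (limma, adjusted p = 0.505). Treated minus untreated HSF-6(8) was 0.68 ± 0.50 with all arrays and 1.37 ± 0.24 without the third treated array.

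The probe set annotated to CFC1B alone was dim and was kept only through the treated HSF-6(S9) arrays, the only ones on which it exceeded the array median, so that it could enter the test only if it was high there. Its signals were 72.6, 89.5 and 122 on treated HSF-6(S9) arrays, 5.90, 12.3 and 6.91 on treated HSF-6(8) arrays, and 26.6, 26.4 and 33.9 on untreated arrays, with no overlap between any groups. The difference between treated HSF-6(S9) and untreated cells was 1.28 ± 0.21 (limma, adjusted p = 0.0463), which passed the test, and the difference from treated HSF-6(8) was 2.17 ± 0.21 (limma, adjusted p = 0.0726), which did not. Leaving out any single array moved the first adjusted p to between 0.0562 and 0.178, so the call was lost each time. The 2 probe sets annotated to CFC1 alone lay between 5.23 and 79.7 on the 9 arrays and were not kept.

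FOXH1, the DNA-binding partner of SMAD2 and SMAD3, had 2 kept probe sets. The brighter had signals of 5441, 5664 and 2992 on treated HSF-6(S9) arrays, 4680, 5468 and 2178 on treated HSF-6(8) arrays, and 5617, 5947 and 2663 on untreated arrays. The third array was the lowest in every group. Against untreated cells, treated HSF-6(S9) differed by 0.02 ± 0.44 (limma, adjusted p = 0.995). The dimmer FOXH1 probe set had signals of 2324, 1234 and 747 on treated HSF-6(S9) arrays, 1945, 2120 and 858 on treated HSF-6(8) arrays, and 2847, 2471 and 1197 on untreated arrays, again with the third array lowest in every group. Its difference between treated HSF-6(S9) and untreated cells was −0.65 ± 0.50 (limma, adjusted p = 0.703). Across the 12 kept probe sets, 3 (both of FOXH1 and the one shared by CFC1 and CFC1B) were lowest on the third array in every group, beside 13.8% of all kept probe sets.

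SMAD7, the inhibitory SMAD that is switched on by the pathway and blocks its receptors, had signals of 293, 311 and 482 on treated HSF-6(S9) arrays, 353, 375 and 989 on treated HSF-6(8) arrays, and 449, 515 and 878 on untreated arrays. The third array was the highest in every group. For treated HSF-6(S9) over untreated cells, the difference was −0.71 ± 0.42 (limma, adjusted p = 0.589), with overlapping groups. CER1 was the other of 2 kept probe sets highest on the third array in every group, beside 16.4% of all.

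Counted over the 12 kept probe sets, 1 was called higher and none lower in treated HSF-6(S9) against untreated cells, beside 0.314% and 0.0750% of all kept probe sets. The call was CFC1B, which passed the filter on low values only through the treated HSF-6(S9) arrays, so the count is no support for a difference of the set. At an unadjusted p under 0.05, 4 of 12 passed, as did 3304 of 29328 overall. Without the third treated HSF-6(8) array, LEFTY1 and the brighter NODAL probe set were called lower, beside 0.147% of all kept probe sets, and none was called higher, beside 0.351%. In a fit of treated HSF-6(S9) and untreated arrays alone, which was added after seeing the data, LEFTY1 was called lower, beside 0.0409%, and CFC1B was not called. The untreated levels of LEFTY1 and NODAL were known when the set was named, so calls of these genes are no support for the set. Groups did not overlap for 6 of 12 probe sets that were lower in treated HSF-6(S9) cells, beside 8.35% of all kept probe sets, and for 2 that were higher, beside 9.07%. The median difference was −0.75 over the 12 and −0.01 over all kept probe sets.

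Between treated HSF-6(S9) and treated HSF-6(8) cells, limma called 0 of the 12 probe sets and 0 of all 29328, which is 0%. At an unadjusted p under 0.05, 1 of 12 passed, as did 712 overall. The median difference over the 12 was −0.57 with all arrays and −0.05 once the third treated HSF-6(8) array was dropped, against −0.04 over all kept probe sets with all arrays. For the brighter NODAL probe set the difference without that array was 0.12, with a 95% interval of −0.27 to 0.52. CFC1B was the 1 of 12 whose groups did not overlap and that was higher in treated HSF-6(S9), beside 2.41% of all, and none was lower without overlap, beside 4.05%.

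Between treated and untreated HSF-6(8) cells, limma called 0 of the 12 probe sets, beside 0.300% of all kept ones (0.0273% lower), and 2 of 12 had an unadjusted p under 0.05, as did 2204 of 29328 overall. Groups did not overlap for 3 probe sets that were lower in treated cells, beside 6.04% of all, and for none that was higher, beside 8.82%. Since these values chose the genes, nothing is read from those counts. The third treated array exceeded all 8 others for 6 of the 12 probe sets, beside 17.0% of all, and was at least 2-fold above the mean of the others of its group for 7 of 12, beside 7.52%. LEFTY1 and NODAL levels on that array were also known when the set was named, so nothing is read from these counts either.

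**Figure D2:**
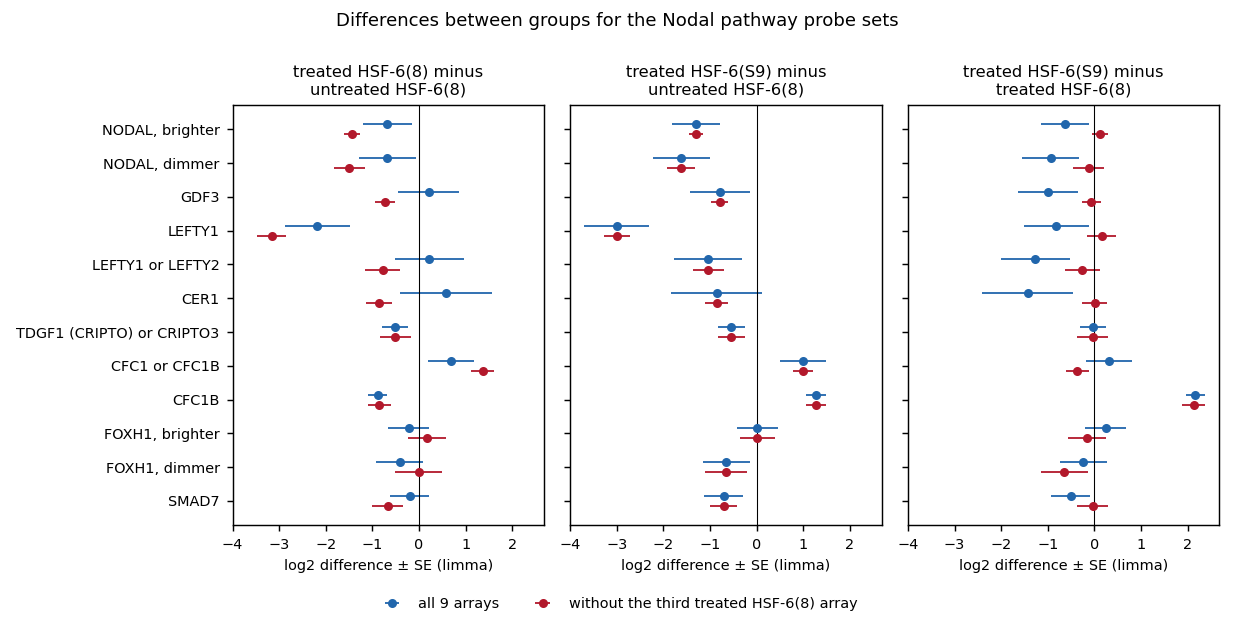
Differences on the log2(signal + 16) scale for each kept Nodal pathway probe set in the 3 comparisons, with all arrays and leaving out the third treated HSF-6(8) array; error bars are standard errors from the limma fit. Panels run from treated against untreated HSF-6(8) through treated HSF-6(S9) against untreated HSF-6(8) to treated HSF-6(S9) against treated HSF-6(8). LEFTY1 is lowest in both comparisons with untreated cells, at −2.19 and −3.00.

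Outside the set, 53 genes of the wider pathway were grouped as other ligands, receptors, SMADs and nuclear partners, modulators and target genes, and 45 of them were tested. None was called in any comparison with all arrays. In treated HSF-6(S9) against untreated cells, adjusted p ran from 0.181 to 0.995 and 11 had an unadjusted p under 0.05. Over all kept probe sets, 3304 of 29328 did. In treated HSF-6(S9) against treated HSF-6(8) cells, all adjusted p were 1.00 and 1 had an unadjusted p under 0.05, as did 712 probe sets overall. In treated against untreated HSF-6(8) cells, 7 had an unadjusted p under 0.05, as did 2204 probe sets overall. Without the third treated HSF-6(8) array, 1 gene, GATA6, was called higher in both comparisons with untreated cells. The share of all kept probe sets called higher was then 0.351% in treated HSF-6(S9) and 0.160% in treated HSF-6(8). In treated HSF-6(S9) cells the limma adjusted p of GATA6 was then 0.0181.

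In treated HSF-6(S9) against untreated cells, the 2 differences of greatest size in each list were as follows. Among ligands, TGFB2 was 1.10 and INHBA, the activin A subunit, was 0.71. Among receptors, TGFBR2 was −0.58 and ACVR2A 0.47. Among SMADs and partners, SKIL, a SMAD co-repressor, was −0.59 and DRAP1, a co-repressor that limits Nodal signalling in mice, was −0.42. Among modulators, FST, the activin-binding protein follistatin, was 1.07 and PMEPA1 −0.98. Among targets, GATA6 was 1.84 and FOXA2 1.61, both endoderm transcription factors. In treated against untreated HSF-6(8) cells the corresponding values were TGFB2 1.28 and INHBA 0.83, ACVR1C 0.55 and ACVR2A 0.54, SKIL −0.33 and TGIF1 −0.30, FST 1.01 and PCSK5 −0.78, and GATA6 3.04 and FOXA2 2.18. Leaving out the third treated array gave TGFB2 1.17 and INHBA 0.46, ACVR1C 0.71 and ACVR2A 0.62, SKIL −0.36 and TGIF1 −0.25, FST 0.69 and PCSK5 −0.93, and GATA6 2.13 and FOXA2 1.77. Each kept its direction. In treated HSF-6(S9) against treated HSF-6(8) cells the values with all arrays were INHBB −0.52 and TGFB1 −0.33, ACVR2B 0.30 and TGFBR2 −0.25, TRIM33 0.26 and SKIL −0.26, FURIN −0.74 and DACT2 −0.41, and TBXT −1.21 and EOMES −1.20. Leaving out the same array gave INHBB −0.33 and TGFB1 0.17, ACVR2B 0.021 and TGFBR2 −0.23, TRIM33 0.089 and SKIL −0.23, FURIN −0.82 and DACT2 −0.086, and TBXT −0.23 and EOMES −0.045. TGFB1 thus changed sign, and INHBB, ACVR2B, TRIM33, DACT2, TBXT and EOMES moved closer to 0 by more than 1.5 times.

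Target genes of gastrulation were highest on the third treated HSF-6(8) array for 10 of the 11 with a probe set of their own. Over all kept probe sets, that share was 17.0%. GSC and LHX1 were counted among the 10 but were not kept. Each exceeded the array median only on the third treated HSF-6(8) array, at 225 and 101. All of the 11 but LHX1 also stand on the marker lists above, so this count repeats values given there. EOMES, a transcription factor of mesendoderm, had 245, 246 and 377 on treated HSF-6(S9) arrays, 255, 337 and 3419 on treated HSF-6(8) arrays, and 111, 230 and 234 on untreated arrays. MIXL1, a homeobox gene of the primitive streak, had 52.4, 80.5 and 92.0 on treated HSF-6(S9) arrays, 38.4, 78.1 and 1540.5 on treated HSF-6(8) arrays, and 85.4, 72.2 and 76.0 on untreated arrays. TBXT, the T-box factor brachyury, had 63.1, 116 and 80.7 on treated HSF-6(S9) arrays, 105, 98.9 and 884 on treated HSF-6(8) arrays, and 95.6, 21.6 and 103 on untreated arrays. In all 3 genes the third treated HSF-6(8) array stood far above the other 8. Those 8 overlapped between groups for MIXL1 and TBXT, whereas for EOMES all untreated arrays lay below all treated ones. For GATA6, too, all treated arrays exceeded all untreated ones, with 276, 289.5 and 327 on treated HSF-6(S9) arrays, 281, 471 and 2541 on treated HSF-6(8) arrays, and 74.8, 59.9 and 80.0 on untreated arrays.

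**Figure D3:**
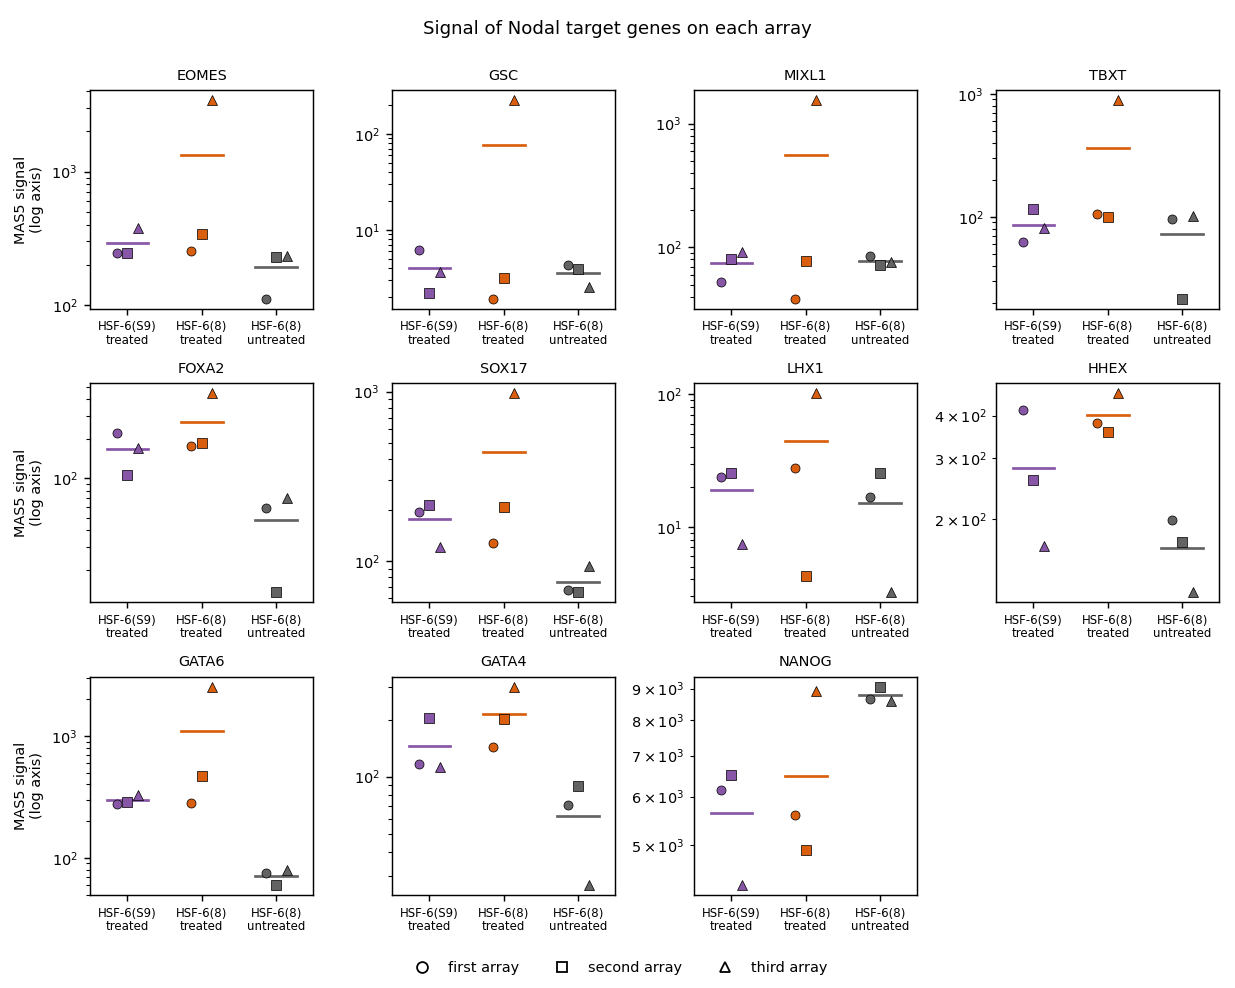
MAS5 signal (log axis) of 11 target genes of the pathway on each array, with bars at group means. The third treated HSF-6(8) array is highest for 10 of them, and NANOG is the exception. GSC and LHX1 are shown but were not kept.

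The gap between the third treated HSF-6(8) array and the mean of the others of its group was summarised as a median log2 difference over each list. It was 1.83 over the members with a probe set of their own, 2.47 over the targets, 0.58 over other ligands, 0.39 over modulators, −0.23 over SMADs and partners and −0.42 over receptors, against 0.02 over all kept probe sets. The list medians include genes whose probe set was not kept. They were CFC1 among members, GSC and LHX1 among targets, MSTN among ligands and PCSK6 among modulators. The value over the members is a description, because the LEFTY1 and NODAL levels on that array were known when the set was named. The 18S ribosomal control signal was also high on the third arrays of all groups, at 1517 in treated HSF-6(S9), 850 in treated HSF-6(8) and 963 in untreated cells, against 385 to 542 on the other 6. The part of that signal in the differences was not tested.

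**Figure D4:**
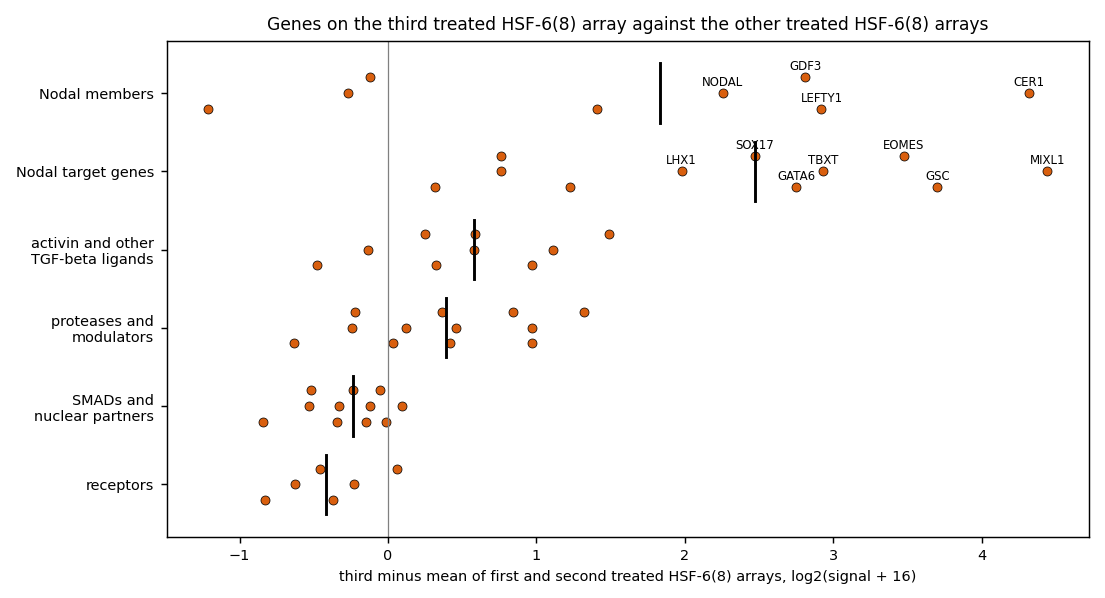
Log2 difference between the third treated HSF-6(8) array and the mean of the first and second, for each gene with a probe set of its own in the pathway lists; points are genes and black bars are list medians. The medians run from −0.42 in receptors to 2.47 in targets. Genes whose probe set was not kept are included.

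Over the 9 arrays, the genes most like LEFTY1 by Pearson correlation on the log2 scale, out of 13512 compared, were AGO3 and GRB10, each at 0.98, VSNL1 at 0.98, AK4 at 0.97 and EGFR at 0.97. The genes most like NODAL were ECSCR at 0.97, SHC3 at 0.96, AK4 at 0.96, VSNL1 at 0.96 and POLR3K at 0.96. AK4 and VSNL1 were on both lists. The arrays share groups and the differences of the third arrays described above, so these values are a description. VSNL1, a neuronal calcium sensor, had 621, 572 and 654 on treated HSF-6(S9) arrays, 678, 558 and 1856 on treated HSF-6(8) arrays, and 1469, 1666 and 1751 on untreated arrays.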

How the data were processed

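The authors deposited 1 linear MAS5 signal intensity for each probe set, made with Affymetrix Expression Console and MAS5 per the submitters' processing notes, with versions not given in the sources used here. The trimmed mean signal of the arrays lay between 500.061 and 500.076, as computed here. No detection calls were used, and the number of arrays limits precision. From these values, 16 was added, log2 taken, and probe sets kept when above the array median on at least 3 of 9 arrays. All 9 arrays were fitted with limma 3.58.1 in R 4.3.3, with 6 residual and 3.20 prior degrees of freedom, Benjamini-Hochberg adjustment over 29328 probe sets, and a call at adjusted p under 0.05 and at least 2-fold. The steps were run on simulated arrays with known changes and independent noise. The simulation held no difference of the third arrays, so it does not show how the fit performs with one. The members and gene lists were chosen with earlier results of these data known. Named genes were all member probe sets, up to 4 called genes or else the 2 of greatest change from each other pathway list and comparison, and the 5 genes most like LEFTY1 and NODAL. GATA3, PAX3, EOMES, MIXL1, TBXT and the per-array values of VSNL1 were singled out after their values were seen. In tests and correlations, a gene outside the set stands as its kept single-gene probe set of highest mean. In marker sums, counts of genes highest on an array, and list medians of the third-array gap, kept and unkept probe sets both qualified. There each gene stands as its single-gene probe set of highest mean. The prime marks in the titles were taken as replicate numbers. The deviations from group means of same-numbered arrays correlated at 0.12 to 0.59. This was above 0.1 in every pair, which by the rule used here pairs the arrays. The main fit did not use that pairing, and results with a replicate block are given below. Only the third arrays were set apart by their number: first and second arrays of different numbers correlated as much in places, with 0.38 between the first treated and the second untreated HSF-6(8) array, against 0.32 between the first of each.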

Additional observations from a re-analysis of the deposited data

How the results depend on the processing

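Counts of called Nodal pathway probe sets moved with the processing. In treated minus untreated HSF-6(8) cells the count was 0, but 1 with only the first and second arrays of each group, and 0 to 2 when single arrays were left out. Between treated HSF-6(S9) and treated HSF-6(8) cells it was 0, but 1 with a pseudocount of 1, with quantile normalization and with 1 probe set per gene (CFC1B each time), and 0 to 0 when single arrays were left out. Between treated HSF-6(S9) and untreated cells it was 1, but 0 with a pseudocount of 1 or 64, with no filter, with the 75th percentile filter, and with trend and robust eBayes, and 0 to 2 when single arrays were left out. CFC1B, whose adjusted p was 0.0463, had an adjusted p of 0.0745 and 0.0976 with those pseudocounts, 0.113 with no filter and 0.252 with trend and robust eBayes. It was not among the probe sets tested with the 75th percentile filter. The fit on treated HSF-6(S9) and untreated arrays alone was chosen after seeing the data; its count was also 1, with LEFTY1 in place of CFC1B. With only the first and second arrays the count was also 1, again LEFTY1, at an adjusted p of 0.0486.

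With the replicate block the counts were 0, 0 and 1 in the same order, and it changed no call of these probe sets. Over all kept probe sets the block raised calls in treated minus untreated HSF-6(8) to 132 higher and 16 lower, against 80 and 8 without it, and in treated HSF-6(S9) minus untreated cells to 173 and 60, against 92 and 22. Treating the third arrays as a separate batch made these counts 182 and 32, and 212 and 83. LEFTY1 in treated HSF-6(S9) minus untreated cells had an adjusted p of 0.0756 with the block and 0.0605 with that batch term.

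Several differences that were not called changed sign. In treated minus untreated HSF-6(8), with only the first and second arrays, CER1 was −0.62, GDF3 −0.84 and the LEFTY1 or LEFTY2 probe set −0.98. When single arrays were left out, CER1 ran from −0.86 to 1.37, GDF3 from −0.73 to 0.72, LEFTY1 or LEFTY2 from −0.78 to 0.83, the brighter FOXH1 probe set from −0.60 to 0.18 and SMAD7 from −0.67 to 0.079. For HSF-6(S9) against HSF-6(8), both treated, with only the first and second arrays, CFC1 or CFC1B was −0.17, TDGF1 0.24, LEFTY1 0.033 and the brighter NODAL probe set 0.13. When single arrays were left out, CER1 ran from −2.23 to 0.0052, CFC1 or CFC1B from −0.37 to 0.75, TDGF1 from −0.24 to 0.24, the dimmer FOXH1 probe set from −0.66 to 0.15, the brighter from −0.16 to 0.54, LEFTY1 from −1.48 to 0.16 and NODAL from −1.01 to 0.12. In treated HSF-6(S9) minus untreated cells, the brighter FOXH1 probe set was −0.058 with only the first and second arrays and ran from −0.35 to 0.31 when single arrays were left out. Why the third treated HSF-6(8) array differs was not tested. With 3 arrays a group and no detection calls, differences of dim probe sets are the least certain.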
